A study of Mus musculus with 10 samples.

Results

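Of the 9 genes described here, Cebpa, Cebpb, Cebpd, Cebpe and Cebpg encode proteins of the C/EBP family, and Cebpz shares only the name. Spi1 encodes the ETS factor PU.1, Spib its close relative SPI-B, and Gfi1 the repressor GFI1. All 9 were taken by symbol from a table of FPKM, fragments per kilobase of exon, scaled to the mapped fragments of the library. Each was found among its 55359 listed genes. The values came from RNA-seq of lineage-negative (Lin-) bone marrow cells, which remain when cells bearing markers of mature blood lineages are removed and so hold stem cells, progenitors and early precursors. The 5 WT mice carried Dhx9f/f, a Dhx9 allele flanked by loxP sites, without Cre. The 5 mice labelled cKO were Dhx9f/f;MX1, carrying the same allele and Cre under the interferon-inducible Mx1 promoter, which the study induced by injecting poly(I:C). DHX9 is an RNA and DNA helicase. Mx1-Cre is active in blood cells and in other interferon-responsive cells, and poly(I:C) itself raises interferon. The sources used here do not state whether the sequenced WT mice received it, so Cre, deletion and any difference in injection cannot be told apart. Each library is treated as 1 mouse.

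C/EBP proteins are basic leucine zipper factors that bind DNA as dimers. C/EBPα is needed for the step to granulocyte-monocyte progenitors, C/EBPε for late granulocyte maturation, and C/EBPβ for granulocyte production under stress. PU.1 directs myeloid and B-lymphoid fates and opposes GATA1, the main erythroid factor, while GFI1 is a zinc finger repressor that favours neutrophil over monocyte fate and has an erythroid and megakaryocytic relative, GFI1B.

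The promoter windows of 5 genes are shown because the genes differed in how far their RNA changed and because 2 of the windows hold a motif of a member. Each runs from 250 bases before to 20 bases after the start of the transcript that the annotation marks as canonical (GRCm39), 5′ to 3′ on the strand of the gene. Spi1 lies on the plus strand of chromosome 2 (chr2:90926191-90926460), Spib on the minus strand of chromosome 7 (chr7:44181476-44181745), Cebpa on the plus strand of chromosome 7 (chr7:34818478-34818747), Cebpb on the plus strand of chromosome 2 (chr2:167530585-167530854) and Gfi1 on the minus strand of chromosome 5 (chr5:107872190-107872459). The last 20 bases of each window are exonic, and an exon of the noncoding gene Gm45091 also overlaps the Cebpa window. Spi1 and Gfi1 have a further annotated start upstream of the window shown. Capitals mark a PU.1 motif in Spi1 and a C/EBP motif in Spib.
Spi1: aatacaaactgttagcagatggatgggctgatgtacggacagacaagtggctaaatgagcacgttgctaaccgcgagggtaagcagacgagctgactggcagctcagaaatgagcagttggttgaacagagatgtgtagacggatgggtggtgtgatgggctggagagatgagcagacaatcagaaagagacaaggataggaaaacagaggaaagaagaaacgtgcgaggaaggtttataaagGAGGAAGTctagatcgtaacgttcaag
Spib: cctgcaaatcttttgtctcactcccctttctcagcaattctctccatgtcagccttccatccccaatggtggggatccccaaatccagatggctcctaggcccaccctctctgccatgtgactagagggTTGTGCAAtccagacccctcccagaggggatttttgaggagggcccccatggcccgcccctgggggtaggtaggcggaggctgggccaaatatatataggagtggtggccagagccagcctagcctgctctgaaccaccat
Cebpa: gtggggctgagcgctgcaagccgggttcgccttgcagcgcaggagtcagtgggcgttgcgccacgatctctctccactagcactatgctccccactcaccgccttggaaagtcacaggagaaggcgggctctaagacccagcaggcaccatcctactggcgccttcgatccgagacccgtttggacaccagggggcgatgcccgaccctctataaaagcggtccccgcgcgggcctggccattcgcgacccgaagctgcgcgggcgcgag
Cebpb: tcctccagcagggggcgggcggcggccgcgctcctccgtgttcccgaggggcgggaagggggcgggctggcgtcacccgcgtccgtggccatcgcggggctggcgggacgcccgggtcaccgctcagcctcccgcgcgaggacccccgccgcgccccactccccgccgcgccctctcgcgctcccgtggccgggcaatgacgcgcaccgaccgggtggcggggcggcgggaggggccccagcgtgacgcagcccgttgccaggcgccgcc
Gfi1: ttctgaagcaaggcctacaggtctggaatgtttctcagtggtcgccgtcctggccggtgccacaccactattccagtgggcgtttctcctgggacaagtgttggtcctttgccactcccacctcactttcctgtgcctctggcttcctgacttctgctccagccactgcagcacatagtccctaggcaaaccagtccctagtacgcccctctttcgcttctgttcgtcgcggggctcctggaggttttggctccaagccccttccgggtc

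Motifs were searched on both strands as fixed letters. The PU.1 motif GAGGAAGT was found in the Spi1 window, where it begins 7 bases before the start and ends on the start base, and in 2.671% of the 12877 windows searched. The C/EBP motif TTGCNNAA was found in the Spib window, on the strand opposite to the gene from 121 bases before the start, and in 8.628% of all windows. Neither motif was found in the windows of the other members, and the RUNX motif TGTGGTTT (1.367% of all windows), a GFI1 consensus motif (0.233%) and the GATA motif AGATAA (7.929%) were found in no member's window. The windows differed in base composition, from 47.4% G and C in Spi1 to 81.9% in Cebpb, against a median of 56.7% over all windows. These matches describe letters in short windows and do not show binding.

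Dhx9, the targeted gene, went against the labels. Its level was 65.43 to 72.42 FPKM in the WT libraries and 130.82 to 156.49 FPKM in the cKO-labelled libraries, a log2 fold change of 1.0 ± 0.0654 (SE, limma, adjusted p = 1.4e-05). The gene-level value sums all exons and does not show the floxed exons alone, so groups are called by their labels throughout, with single libraries written WT 1 to WT 5 and cKO 1 to cKO 5. Its fold change was just under 2, and the call lost, without WT 1, WT 4, WT 5, cKO 2 or cKO 4 (log2 fold change of at least 0.96). Depth estimated from the table was 13788839 to 18715639 fragments per library, and no pair of libraries within a group was alike within sampling noise. Of 18742 genes tested, 3153 passed as lower and 862 as higher in the cKO-labelled libraries, where a call needed an adjusted p below 0.05 together with at least a 2-fold change. Summed erythroid markers were 879 to 2057 FPKM in WT and 2796 to 4116 FPKM in the cKO-labelled libraries, with 7 of 10 called higher. Summed monocyte markers were 501 to 795 FPKM and 6.23 to 174 FPKM, with 6 of 6 called lower. Neutrophil markers had 1 of 7 called lower, with sums of 118 to 225 FPKM in WT and 10.8 to 1384 FPKM in the cKO-labelled libraries, the highest in cKO 1. Of the stem and progenitor markers 4 of 6 were called lower, and Kit, which marks progenitors, was not (log2 fold change -0.86). Called lower were also 4 of 6 dendritic cell, 2 of 4 tested B cell, 3 of 6 T and NK cell, 6 of 6 megakaryocyte, 6 of 6 mast cell, basophil and eosinophil, and 5 of 6 stromal and endothelial markers, and no marker was listed at 0 in every library. The part of these shifts in the results below was not tested, and in a bulk sample fewer cells of a type and less RNA per cell cannot be told apart. Xist, an RNA of female cells, was below 1 FPKM in WT 1, WT 2 and all 5 cKO-labelled libraries, and at or above it in the other 3 WT libraries.

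Of the 9 members, 6 passed as lower in the cKO-labelled libraries, namely Cebpa, Cebpd, Cebpe, Spi1, Spib and Gfi1, and 0 were called higher, where 16.8% of all tested genes were called lower and 4.6% higher. Cebpb, Cebpg and Cebpz were not called. The median log2 fold change over the members was -1.73, against -0.11 over all tested genes. In 5 members every library labelled cKO lay below every WT library, which held for 21.6% of all tested genes. By the adjusted p alone, 7 members were lower (28.3% of all tested genes), with Cebpb as the addition, and 1, Cebpz, was higher (16.7%). With only the libraries below 1 FPKM of Xist, taken as one sex (2 WT against 5 labelled cKO), 3 members were called lower, Cebpa, Cebpd and Spi1, and the log2 fold changes of Cebpe, Spib and Gfi1 were -2.32, -2.50 and -2.08 with adjusted p = 0.087, 0.0763 and 0.0813 (limma).

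**Figure D1:**
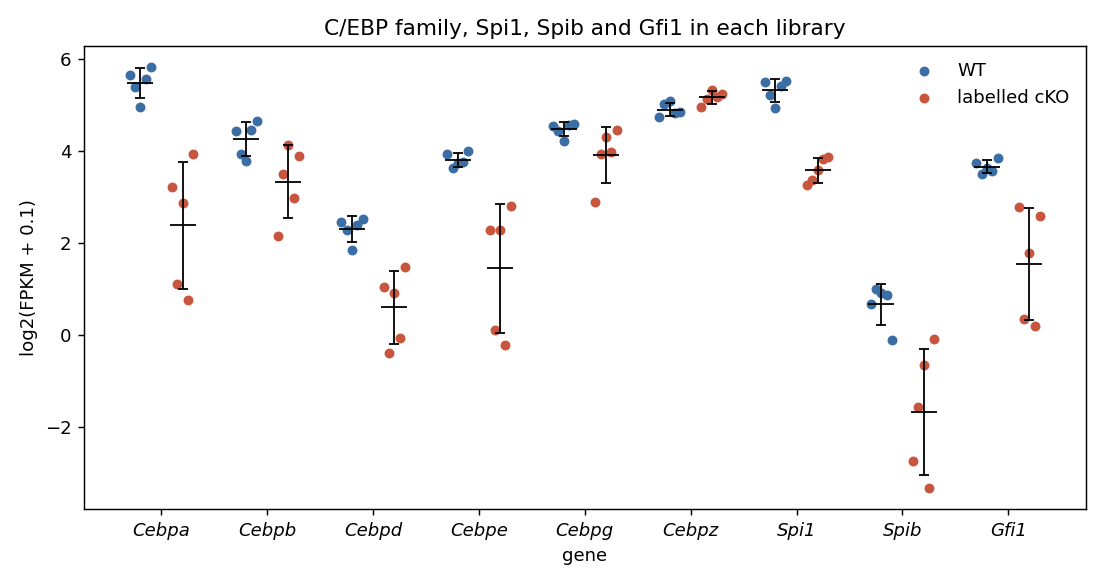
Level of each member in each library, as log2(FPKM + 0.1), with 5 WT libraries (blue) and 5 libraries labelled cKO (red) as points and the mean ± SD as black bars. The groups are apart for Cebpa, Cebpd, Cebpe, Spi1 and Gfi1 and overlap for Cebpb, Cebpg, Cebpz and Spib.

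**Figure D2:**
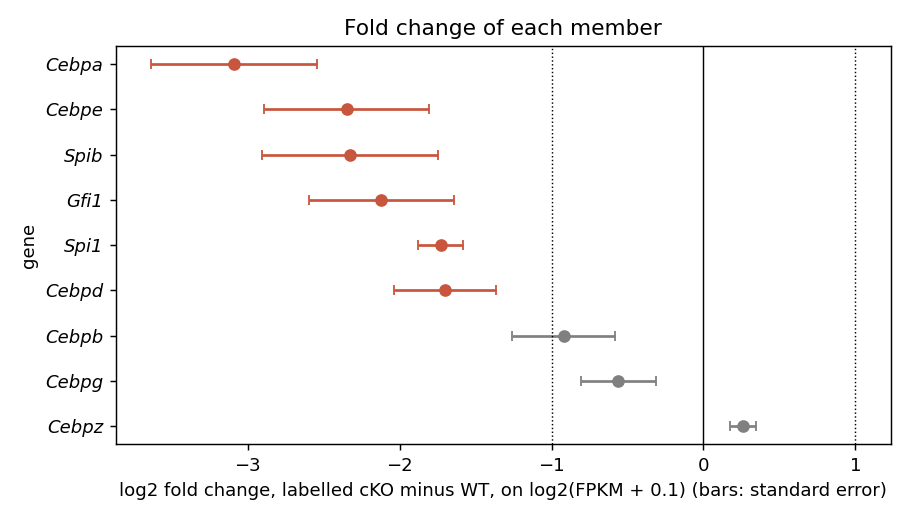
Log2 fold change of each member, labelled cKO minus WT, on the log2(FPKM + 0.1) scale, with the standard error of the limma fit as bars and n = 5 libraries per group. Red points were called (adjusted p under 0.05 and beyond the dotted lines at a fold change of 2), grey points were not, and values run from -3.09 for Cebpa to 0.26 for Cebpz.

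PU.1 and its relative were both lower. Spi1 (ENSMUSG00000002111, chromosome 2) stood at 45.39, 36.94, 30.34, 42.64 and 45.96 FPKM in WT 1 to 5 and at 9.46, 10.25, 11.93, 14.12 and 14.54 FPKM in cKO 1 to 5. The groups did not overlap, and the cKO-labelled libraries lay close together. Spi1 fell by 1.73 ± 0.149 on the log2 scale (SE, limma, adjusted p = 4.6e-05), the smallest standard error among the 6 members called lower. Each library labelled cKO was between 1.45 and 2.06 below the WT mean on that scale, and leaving out any 1 library gave -1.83 to -1.65. Spib (ENSMUSG00000008193, chromosome 7), which acts in B cells and plasmacytoid dendritic cells, was at 1.49, 1.89, 1.78, 1.73 and 0.83 FPKM in WT and at 0.05, 0.24, 0.54, 0 and 0.85 FPKM in the cKO-labelled libraries. It was the least abundant member, with about 35 to 90 fragments in the WT libraries and about 0 to 37 in the cKO-labelled libraries, and cKO 1 and cKO 4 lay below a floor of 3 fragments. WT 5 and cKO 5 were alike, so the groups overlapped. Its log2 fold change was -2.33 ± 0.579 (SE, limma, adjusted p = 0.0071) and shrank to -0.95, no longer called, with a pseudocount of 1.

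Cebpa, Cebpd and Cebpe all fell. Cebpa (ENSMUSG00000034957, chromosome 7), the factor of the first granulocyte-monocyte step, was at 50.33, 41.59, 31.07, 47.1 and 56.55 FPKM in WT and at 9.18, 2.07, 7.26, 1.6 and 15.27 FPKM in cKO 1 to 5. Its decrease was the largest of the members, at -3.09 ± 0.547 (log2, SE, limma, adjusted p = 0.00104), and the group means differed 6.41-fold. The highest library labelled cKO, cKO 5, was still below the lowest WT library. Within the cKO-labelled libraries the level varied widely, with cKO 2 and cKO 4 far below the other three. Cebpe (ENSMUSG00000052435, chromosome 14), the factor of granule and late maturation genes, was at 15.14, 12.2, 13.29, 13.39 and 15.8 FPKM in WT and at 4.77, 0.98, 4.77, 0.76 and 6.93 FPKM in the cKO-labelled libraries. The same 2 libraries, cKO 2 and cKO 4, were the lowest. Cebpe fell by 2.35 ± 0.546 (log2, SE, limma, adjusted p = 0.00493). Cebpd (ENSMUSG00000071637, chromosome 16), an acute-phase and myeloid differentiation factor, was at 5.42, 4.8, 3.49, 5.19 and 5.68 FPKM in WT and at 1.97, 0.67, 1.8, 0.86 and 2.7 FPKM in the cKO-labelled libraries. It fell by 1.70 ± 0.335 (log2, SE, limma, adjusted p = 0.00194), again with cKO 2 and cKO 4 lowest.

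The other genes named for C/EBP did not pass both thresholds. Cebpb (ENSMUSG00000056501, chromosome 2), which can act in place of C/EBPα in emergency granulopoiesis, was at 21.39, 15.12, 13.76, 21.82 and 25.02 FPKM in WT and at 4.32, 11.22, 17.44, 7.84 and 14.74 FPKM in cKO 1 to 5. The groups overlapped, with cKO 3 above WT 2 and WT 3. Its log2 fold change was -0.92 ± 0.340 (SE, limma, adjusted p = 0.0472), short of a fold change of 2. It was called lower without WT 3 (-1.03), without cKO 3 (-1.12) or without cKO 5 (-1.06). Without cKO 1, the lowest library, the estimate was -0.62. Besides cKO 1, cKO 2 and cKO 4 also lay below every WT library. Cebpg (ENSMUSG00000056216, chromosome 7), which lacks an activation domain and pairs with other leucine zipper factors such as ATF4, was at 18.43 to 24.07 FPKM in WT and at 7.34, 15.21, 19.6, 15.73 and 21.8 FPKM in the cKO-labelled libraries. Its log2 fold change was -0.56 ± 0.247 (SE, limma, adjusted p = 0.0878). Cebpz (ENSMUSG00000024081, chromosome 17), a nucleolar protein outside the leucine zipper family despite its name, was the single member with a higher mean in the cKO-labelled libraries, at 30.76 to 40.09 FPKM against 26.52 to 33.83 FPKM in WT. Its log2 fold change was 0.26 ± 0.0882 (SE, limma, adjusted p = 0.0311), positive in all 20 alternative settings (0.21 to 0.37).

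Gfi1 (ENSMUSG00000029275, chromosome 5) was at 13.3, 11.16, 12.3, 11.82 and 14.31 FPKM in WT and at 6.78, 1.17, 3.34, 1.05 and 5.95 FPKM in cKO 1 to 5. No value of the second group reached the first, and cKO 2 and cKO 4 were once more the lowest. Gfi1 fell by 2.12 ± 0.477 (log2, SE, limma, adjusted p = 0.00423), a 3.44-fold difference between the means. Its relative Gfi1b, which acts in erythroid and megakaryocytic cells, had the opposite sign, with 45.89 to 67.44 FPKM in WT and 82.45 to 114.27 FPKM in the cKO-labelled libraries. The groups of Gfi1b did not overlap either, but its log2 fold change of 0.88 ± 0.119 (SE, limma, adjusted p = 0.000248) did not reach a fold change of 2 and it was not called. The same was true of Gata1, at 48 to 77.36 FPKM and 92.03 to 109.38 FPKM, with a log2 fold change of 0.81 ± 0.119 (SE, limma, adjusted p = 0.00036).

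The order of the members changed between the groups. By mean FPKM, which is per length, WT libraries had Cebpa first (45.3 ± 9.64, SD, n = 5), then Spi1 (40.3 ± 6.59), Cebpz (29.9 ± 3.01), Cebpg (22.2 ± 2.32), Cebpb (19.4 ± 4.78), Cebpe (14 ± 1.47), Gfi1 (12.6 ± 1.24), Cebpd (4.92 ± 0.860) and Spib (1.54 ± 0.425). The ranges of neighbours in this order overlapped except between Cebpz and Cebpg, Gfi1 and Cebpd, and Cebpd and Spib. In the cKO-labelled libraries, Cebpz came first (35.9 ± 3.42), followed by Cebpg (15.9 ± 5.53), Spi1 (12.1 ± 2.26), Cebpb (11.1 ± 5.25), Cebpa (7.08 ± 5.63), Gfi1 (3.66 ± 2.65), Cebpe (3.64 ± 2.68), Cebpd (1.60 ± 0.837) and Spib (0.336 ± 0.357). There, only Cebpz and Cebpg did not overlap.

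Ratios between genes of the same library do not depend on how the library was scaled, and 5 were compared with an exact permutation test (two-sided, 5 against 5 libraries, smallest possible p = 0.00794). The log2 ratio of Cebpb to Cebpa was -1.45 to -1.11 in WT and -1.07, 2.38, 1.25, 2.22 and -0.05 in cKO 1 to 5, a difference of 2.17 (exact p = 0.00794, adjusted over 5 ratios 0.0132). Per length, Cebpb stood below Cebpa in every WT library and above it in cKO 2, cKO 3 and cKO 4, while cKO 1 lay just above the WT range. Cebpa to Spi1 was 0.03 to 0.30 in WT and -0.04, -2.25, -0.71, -3.06 and 0.07 in the cKO-labelled libraries, a difference of -1.36 (exact p = 0.0159, adjusted 0.0198), and -0.89 without cKO 4. In cKO 1 and cKO 5 both genes were lower in nearly the WT proportion. The ratio of Gfi1 to Spi1 differed by -0.38 (exact p = 0.5), with a WT range of -1.84 to -1.30 inside the range of -3.63 to -0.47 of the cKO-labelled libraries, and by 0.01 without cKO 4. Gata1 to Spi1 was 0.06 to 1.35 in WT and 2.65 to 3.40 in the cKO-labelled libraries, a difference of 2.55 and thus 5.85-fold (exact p = 0.00794, adjusted 0.0132). Gfi1b to Gfi1 went from 1.67 to 2.45 in WT to 3.77 to 6.44 in the cKO-labelled libraries, a difference of 2.99 (exact p = 0.00794, adjusted 0.0132). Erythroid and monocyte marker sums moved with the group in the same libraries, as given above, and their part in these ratios was not tested.

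**Figure D3:**
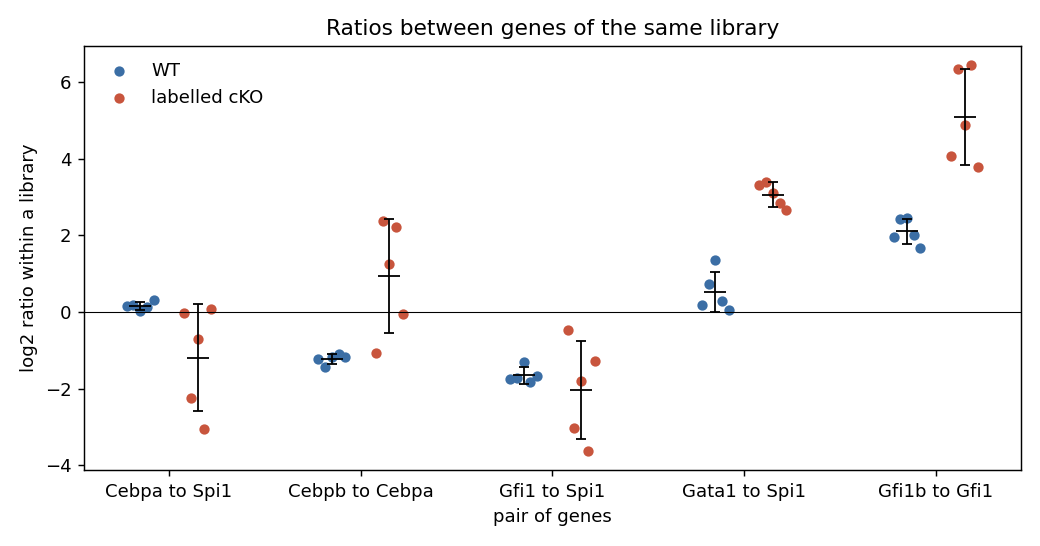
Log2 ratio of 2 genes within each library, for 5 pairs, with WT libraries in blue, libraries labelled cKO in red and the mean ± SD as black bars. The groups are apart for Cebpb to Cebpa, Gata1 to Spi1 and Gfi1b to Gfi1, and overlap for Cebpa to Spi1 and Gfi1 to Spi1.

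The libraries labelled cKO differed among themselves, and part of the members fell into 2 sets. After the group means were subtracted, Cebpa varied with Cebpd (Pearson r = 0.97 over 10 libraries), Cebpe (0.97) and Gfi1 (0.95), and Cebpb with Cebpg (0.92). Between the sets the values were low, at 0.22 for Cebpa with Cebpb and -0.07 for Cebpb with Gfi1. Spi1 had 0.18 with Cebpa, 0.60 with Cebpb and 0.71 with Cebpg. Spib belonged to neither set alone, with 0.35 (Gfi1) to 0.56 (Cebpe) for the first, 0.61 with Cebpb and 0.57 with Cebpg. These values are descriptions, since the points share libraries and most of the spread lies in the 5 libraries labelled cKO. In that group Cebpa, Cebpd, Cebpe and Gfi1 were lowest in cKO 2 and cKO 4, which also had the lowest monocyte marker sums (12.9 and 6.23 FPKM, against 37.0 to 174 in the other 3) and the lowest neutrophil sums (27.9 and 10.8 FPKM, against 84.7 to 1384). This was not particular to myeloid markers, as cKO 2 and cKO 4 had the lowest sums in every list but the erythroid. Stem and progenitor sums, for example, were 21.2 and 23.5 FPKM there, against 37.7 to 40.9. Erythroid sums were highest in cKO 2 and cKO 4 (4116 and 4032 FPKM, against 2796 to 3984). Cebpb, Cebpg and Spi1 were lowest in cKO 1, which had the highest neutrophil sum. Within WT, Cebpa, Cebpb, Cebpd, Cebpg and Spi1 were lowest in WT 3, the WT library with the highest erythroid sum (2057 FPKM). The part of cell composition in these patterns was not tested.

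**Figure D4:**
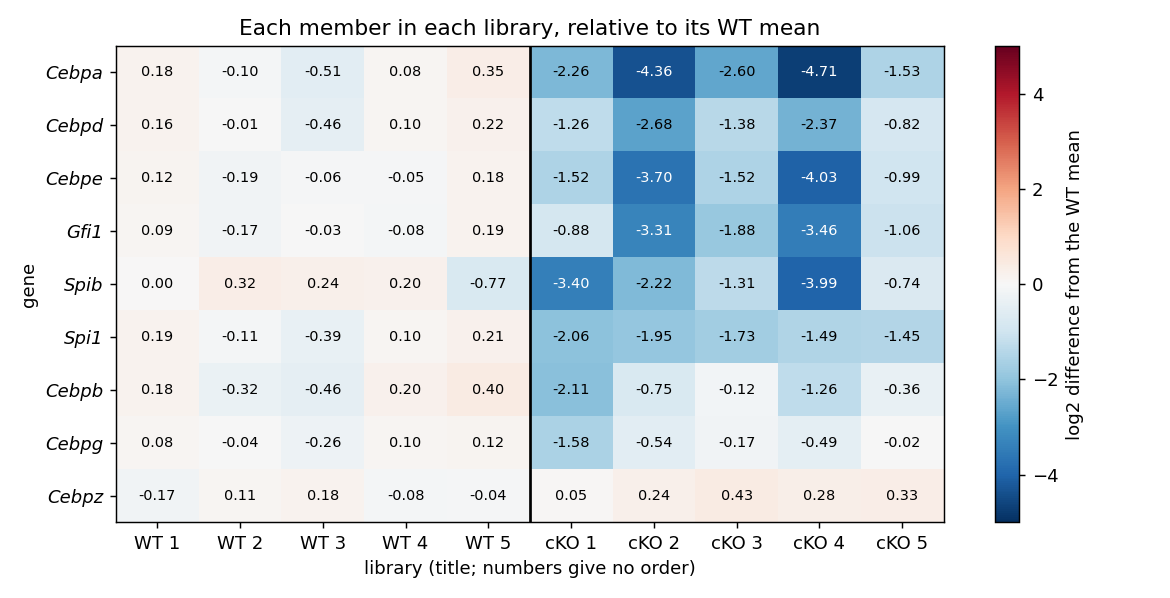
Log2 difference of each member from its WT mean in every library, on the log2(FPKM + 0.1) scale, with negative values in blue and positive values in red. Cebpa, Cebpd, Cebpe and Gfi1 are lowest in cKO 2 and cKO 4, down to -4.71, whereas Spi1 lies between -2.06 and -1.45 in all 5 cKO-labelled libraries and Cebpb and Cebpg are lowest in cKO 1.

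The genes most like each factor, among the 12353 whose mean reached 1 FPKM, were found by the Pearson correlation of log2(FPKM + 0.1) over the 10 libraries. For Spi1 they were Pik3cg, the leukocyte PI3-kinase γ subunit (r = 0.997, and 0.954 after subtracting group means), Arid5a (0.996 and 0.949) and Itgb7, a leukocyte integrin (0.996 and 0.933). For Cebpa they were Wls, which serves Wnt secretion (0.998 and 0.995), Mtus1 (0.998 and 0.994) and Abr (0.997 and 0.991). For Gfi1 they were Serpinb1a, an inhibitor of neutrophil proteases (0.998 and 0.995), Ctsg, cathepsin G of primary granules (0.995 and 0.987), and Hfe, an iron regulator (0.995 and 0.990). For Cebpb they were Osbpl11 (0.978 and 0.969), Add3 (0.976 and 0.968) and Pigh (0.974 and 0.955). All 9 genes most like Spi1, Cebpa and Gfi1 were called lower and none of the 3 most like Cebpb was called, which follows from how they were picked.

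Among 30 listed genes known to pair with these factors or to regulate them, 29 were tested and 19 were not called. The 6 called lower and 4 called higher stand beside shares of 16.8% and 4.6% over all tested genes, and the median log2 fold change was -0.21. Irf8, which binds DNA with PU.1 and directs monocyte and dendritic cell fate, had 38.13 to 53.65 FPKM in WT and 0.38, 0.42, 5.41, 0.09 and 10.16 FPKM in cKO 1 to 5. It fell by 5.24 ± 0.961 (log2, SE, limma, adjusted p = 0.00127), more than Spi1 itself, and its value was -4.57 without cKO 4 and -6.01 without cKO 5. Fli1, another ETS factor, fell by 2.21 ± 0.284 (log2, SE). Ets1 (-2.07), Irf4 (-1.69), Cbfb (-1.51) and Runx1 (-1.11) complete the genes called lower, and CBFβ and RUNX1 together form the core binding factor that acts on the Spi1 enhancer. Among the genes called higher, Trib3, a pseudokinase induced by ATF4 and CHOP, was at 0.09 to 0.33 FPKM in WT and at 3.6, 44.81, 52.48, 44.47 and 39.11 FPKM in the cKO-labelled libraries (log2 fold change 6.43 ± 0.661, SE, and 7.15 without cKO 1). Its relatives Trib1 and Trib2, which direct C/EBPα to degradation through COP1, were not called, with log2 fold changes of -0.07 and -0.38. Trib1 was at 0.13 to 0.40 FPKM in all libraries, and its sign turned with quantile normalization (0.40) and without cKO 4 (0.02). Ddit3, which encodes CHOP, a C/EBP relative that forms inactive dimers with other C/EBPs, rose from 6.87 to 8.48 FPKM to 13.58 to 20.66 FPKM (1.17 ± 0.116, log2, SE, limma, adjusted p = 7e-05). Egr1, a zinc finger factor opposed by GFI1, rose by 2.66 ± 0.424 (log2, SE) and Jun by 1.59. The remaining genes, including the GFI1 corepressors Kdm1a (0.24), Rcor1 (-0.16), Hdac1 (-0.33) and Hdac2 (-0.05), were not called. Irf4, Cbfb, Runx1, Ets1, Jun and the corepressors were chosen for naming after their values were seen.

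**Figure D5:**
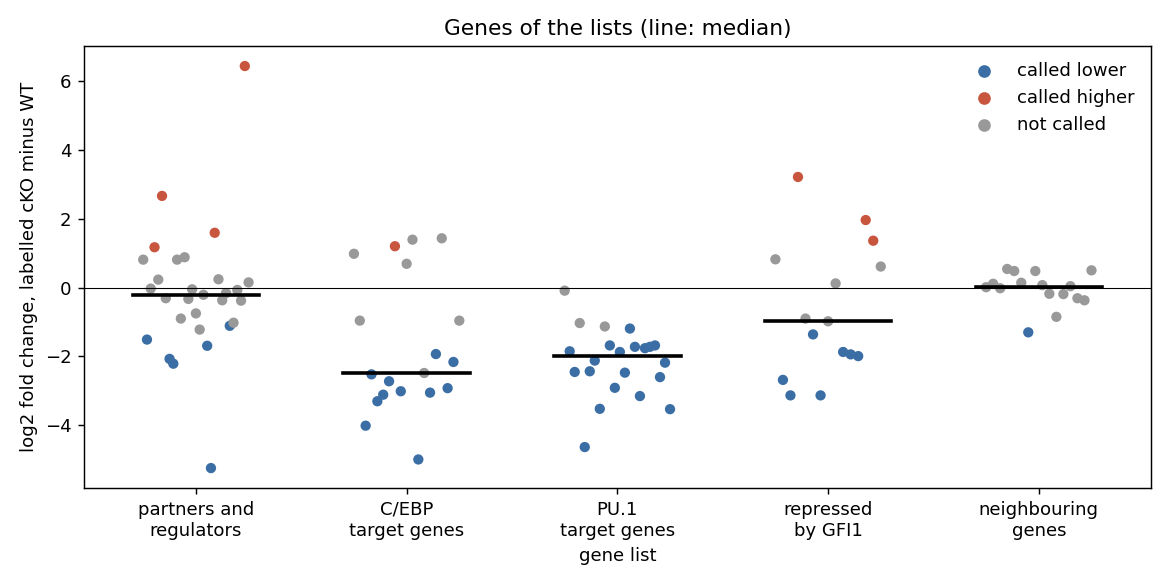
Log2 fold change, labelled cKO minus WT, of every tested gene of 5 lists, with blue for genes called lower, red for genes called higher, grey for genes not called and a black line at the median. Medians are -0.21 for partners and regulators, -2.48 for C/EBP target genes, -1.99 for PU.1 target genes, -0.98 for genes repressed by GFI1 and 0.02 for neighbouring genes.

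Of 20 genes known as C/EBP targets, 19 were tested, 11 were called lower and 1 higher, and the median was -2.48. The shares over all tested genes were 16.8% lower and 4.6% higher, with a median of -0.11. Csf3r, the G-CSF receptor and a classical C/EBPα target, was at 18.91 to 26.01 FPKM in WT and at 4.32, 0.32, 1.97, 0.39 and 2.77 FPKM in cKO 1 to 5. It fell by 4.01 ± 0.60 (log2, SE, limma, adjusted p = 0.000408). Lyz2, lysozyme, fell by 4.99 ± 0.969 (log2, SE), with -4.18 without cKO 4 and -5.64 without cKO 5. Elane, neutrophil elastase of primary granules, fell by 3.30 ± 0.569 and Fcnb, a ficolin, by 3.11 ± 0.760, which became -2.43 without cKO 2. In all of these the lowest libraries were cKO 2 and cKO 4, as for Cebpa and Cebpe. Il1b rose by 1.20 ± 0.373 (log2, SE, limma, adjusted p = 0.0216) from a mean of 0.570 to 1.57 FPKM, and it was no longer called without WT 1, cKO 2, cKO 3 or cKO 4. The secondary granule genes Ngp, Camp, Ltf and Lcn2, known to need C/EBPε and picked from the list after their values were seen, had another order among the libraries than Cebpe. Ngp was at 4.59 to 19.69 FPKM in WT and at 317.58, 8.85, 66.44, 2.41 and 16.04 FPKM in cKO 1 to 5, and Camp at 2.75 to 5.49 FPKM and at 51.19, 5.07, 21.04, 0.8 and 4.72 FPKM. All 4 were highest in cKO 1 and then cKO 3 and lowest in cKO 4 of that group, and none was called, with log2 fold changes of 0.69 to 1.43. The granule gene Mmp8 (-2.48) and the neutrophil surface gene Cd177 (-0.96) of the same list had negative values and were not called either. Mmp8 was highest in cKO 3 (5.91 FPKM) and Cd177 in cKO 1 (19.79 FPKM), and both were lowest in cKO 4. Cebpe was at the same level in cKO 1 and cKO 3. Those libraries also had the highest neutrophil marker sums (1384 and 267 FPKM), and the part of neutrophil number in this result was not tested. With the libraries of one sex alone, 5 C/EBP targets were called lower and 0 higher.

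Of 22 genes known as PU.1 targets, all were tested, 19 were called lower and 0 higher, and the median was -1.99. Csf1r, the M-CSF receptor, was at 19.6 to 30.97 FPKM in WT and at 0.78, 0.38, 2.79, 0.09 and 6.09 FPKM in cKO 1 to 5. It fell by 4.63 ± 0.782 (log2, SE, limma, adjusted p = 0.000799), with -4.0 without cKO 4 and -5.26 without cKO 5. Its lowest libraries, cKO 2 and cKO 4, were those of Cebpa, and its standard error was larger than the 0.149 of Spi1. Tyrobp, an adaptor of myeloid receptors, fell by 3.53 ± 0.579 (log2, SE), and the NADPH oxidase subunits Cybb and Ncf1 fell by 3.52 ± 0.851 and 3.15 ± 0.577, Cybb by 2.79 without cKO 4. Btk, the B cell and myeloid kinase named here after its value was seen, stood at a mean of 48.3 FPKM in WT and 45.8 FPKM in the cKO-labelled libraries (-0.09) and was not called, like Fcgr1 (-1.13) and Cd79a (-1.03). With the libraries of one sex alone 12 of the 22 were called lower. Monocyte markers were lower in the same libraries, and their part in these decreases was not tested.

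Genes known as repressed by GFI1 did not share 1 direction. Of 15 tested, 7 were called lower and 3 higher, beside 16.8% and 4.6% of all tested genes, and the median was -0.98. Cdkn1a, which encodes the cell cycle inhibitor p21, was at 1.13 to 3.65 FPKM in WT and at 5.57, 38.64, 26.71, 42.6 and 29.54 FPKM in cKO 1 to 5. It rose by 3.21 ± 0.518 (log2, SE, limma, adjusted p = 0.000622). Its lowest value in that group was in cKO 1. Pmaip1, which encodes the death-promoting protein NOXA, rose by 1.96 ± 0.213 (log2, SE), and Socs1, a cytokine signalling inhibitor named here to complete the count, by 1.36. The call of Socs1 was lost without WT 2, WT 3, WT 4, WT 5, cKO 2, cKO 3 or cKO 5. It was also lost with a pseudocount of 1, with no filter and with the filter raised to 1 FPKM. The replicate block and the libraries of one sex lost it too. Each of these settings left 2 genes called higher. Cdkn1a and Pmaip1 are also known p53 targets. Csf1, which encodes M-CSF, fell by 3.13 ± 0.427, and the chemokines Ccl4 and Ccl3 by 3.13 ± 0.626 and 2.68 ± 0.545 (log2, SE). Of the cKO-labelled libraries, cKO 1 had the highest Ccl3 (6.89 FPKM, against 0.52 to 1.56) and Ccl4 (1.31 FPKM, against 0 to 0.20).

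The nearest tested protein-coding gene on each side of each member was read from the same fit. Nearness was by annotated gene start, and untested genes and other members were passed over. Of 16 such genes, 1 was called lower and 0 higher, beside 16.8% and 4.6% of all tested genes, and the median was 0.02. Madd, a regulator of small GTPases, has its outermost annotated start 101806 bp from that of Spi1, which is not the canonical start of the Spi1 window. Madd was at 9.23 to 14.11 FPKM in WT and 4.55 to 5.61 FPKM in the cKO-labelled libraries and fell by 1.30 ± 0.123 (log2, SE, limma, adjusted p = 5.8e-05). The neighbour on the other side of Spi1, Slc39a13, had a log2 fold change of 0.04. Pepd, beside both Cebpa and Cebpg, had -0.85, and Glmn and Evi5 around Gfi1 had 0.48 and 0.54, with none of them called. Every member but Cebpe and Spib overlaps another annotated gene. Cebpb overlaps Peds1, Cebpd overlaps Spidr and Cebpz overlaps Cebpzos, all coding and on the opposite strand. Cebpa, Spi1, Gfi1 and Cebpg overlap noncoding genes on the opposite strand, and Gfi1 and Cebpg also overlap noncoding genes on their own strand. Whether the counting used strand is not given in the sources used here, so reads in these overlaps cannot be told apart. The means of the overlapping coding genes were 8.40 and 7.43 FPKM for Peds1, 6.96 and 5.39 FPKM for Spidr and 10.4 and 11.5 FPKM for Cebpzos in WT and labelled cKO. The noncoding gene opposite Cebpa, Gm45091, had 0.526 and 0.1 FPKM, and the one opposite Gfi1, A430072P03Rik, had 1.05 and 0.328 FPKM.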

How the data were processed

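The authors isolated total RNA from Lin- cells, removed adapters, aligned paired reads to GRCm39 and deposited a table of FPKM with 2 decimals. The submitters' processing notes list cutadapt 1.9.1, HISAT2 2.0.1 and HTSeq 0.6.1, and the annotation and gene lengths behind the FPKM are not given in the sources used here. FPKM are not counts, so the study's DESeq2 test was not run.

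The test was limma 3.58.1 in R 4.3.3 (lmFit, eBayes with a trend) on log2(FPKM + 0.1), two-sided, 5 WT against 5 cKO libraries grouped by title, with p-values adjusted by Benjamini-Hochberg over 18742 genes whose mean reached 0.1 FPKM. Fold changes on this scale are understated for low genes. Calls needed an adjusted p below 0.05 together with at least a 2-fold change. In a simulation of this comparison, the fit recovered 186 of 200 genes given a log2 change of 2, and 8 unchanged genes were called. Both groups were given a shared spread for each gene, and the changed genes had a WT mean of at least 1 FPKM. It therefore does not cover changed genes of lower level or groups of unequal spread. Depth came from low values of single-transcript genes, of which 96.0% to 96.4% were whole fragments within 0.2. It sets counting error only, and fragment numbers of members are approximate. Ratios used exact permutation tests (scipy 1.17.1).

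Members and lists were chosen with earlier results of these data known. Lists came from general knowledge. Named genes were Dhx9, the members, the 4 called genes of largest change in each list and up to 2 in the minority direction, called neighbours, 8 further genes (Gata1, Gfi1b, Trib1, Trib2, Irf8, Ddit3, Csf3r and Csf1r) and the 3 genes most like each of 4 members. Symbols, promoters and neighbours came from the GENCODE annotation of GRCm39. Of 2 identifiers for Ddit3, the one with the higher level was used. Same-numbered libraries were not treated as pairs. Alternatives covered pseudocount, filter, scaling, trend, replicate block, call rule, each library left out and libraries of one sex.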

Additional observations from a re-analysis of the deposited data

Results flagged for a closer look

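Single libraries stood far from the other 4 of their group in 5 of 102 groups of values examined, where about 5.1 would be so by chance. In the library labelled cKO 1, Trib3 was at 3.60 FPKM (39.11 to 52.48 in the others), Trib1 at 0.40 FPKM (0.13 to 0.20), Ccl3 at 6.89 FPKM (0.52 to 1.56) and Ccl4 at 1.31 FPKM (0 to 0.20). In the library labelled cKO 3, Egr1 was at 9.64 FPKM (1.74 to 3.76 in the others). None of the 9 members was among them.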

How the results depend on the processing

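The calls of Cebpa, Cebpd and Spi1 held in all 20 alternatives, with log2 fold changes of -3.48 to -2.69, -1.92 to -1.24 and -1.83 to -1.63. Over all genes, 3153 called lower and 862 higher became 1486 and 356 with a pseudocount of 1, 1827 and 462 with the filter raised to 1 FPKM, and 5300 and 3138 by the adjusted p alone, and 1581 were called higher with quantile normalization, which moved the share of higher calls from 21.5% to 41.3% and the median of all genes from -0.11 to 0.10. By the adjusted p alone, 1 member was called higher, partners and regulators had 12 lower and 8 higher, genes repressed by GFI1 had 5 higher, and neighbouring genes had 3 lower and 4 higher. That rule called 28.3% of all tested genes lower and 16.7% higher. With libraries of one sex, 536 genes were called higher, 3 members, 5 C/EBP targets and 12 PU.1 targets lower, and 0 C/EBP targets higher, as with a pseudocount of 1 (0). There the ratios differed by -1.36 (Cebpa to Spi1), 2.29 (Cebpb to Cebpa), 2.61 (Gata1 to Spi1) and 2.90 (Gfi1b to Gfi1) at exact p = 0.0952, the smallest that 2 against 5 libraries allow. Same-numbered libraries did not deviate together (r = -0.08 to 0.19, and not every library was closest to its own number). With the replicate block these ratios were -1.36, 2.17, 2.55 and 2.99 at exact p = 0.0625, the smallest that 5 pairs allow, and no member's call changed, while Socs1 lost its call.

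With 1 library left out, 2892 to 3268 genes were called lower and 762 to 948 higher, 6 to 7 members lower, 11 to 13 C/EBP targets lower and 0 to 1 higher, 17 to 21 PU.1 targets lower, 2 to 3 genes repressed by GFI1 higher, and Gfi1 to Spi1 ranged from -0.77 to 0.01, turning sign without cKO 4. Trib1 turned sign with quantile normalization (0.40) and without cKO 4 (0.02), within -0.26 to 0.02 as libraries were left out. The call of Dhx9 was lost in 8 alternatives, where its log2 fold change lay just under the threshold (0.89 and above). The causes were not tested. Low depth limits Spib most, at 0 to about 90 fragments per library.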
